A study of Caenorhabditis elegans with 18 samples.

Results

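The change described here is that between worms exposed to a soil contaminated with heavy metals at the 14-day sampling time and worms exposed to the same soil at the 0-day sampling time, with no iron treatment of the soil at either time. Its members are 6 of the 18 arrays of the series, namely the 3 arrays titled as control soil at 14 days and the 3 titled as control soil with no added time, which the labels put at 0 days. The other arrays hold the same soil treated with nanoscale zero-valent iron (nZVI), sampled at 14 days and at 0 days (3 arrays each), and both soils sampled at 4 months (3 arrays each). All worms were Caenorhabditis elegans of the wild-type strain N2, a laboratory strain of a self-fertilising soil nematode. Young larvae were grown in liquid culture to late larvae and young adults, and 7500 to 10000 of them were mixed with 0.3 g of soil. Each kilogram of soil held 4200 mg of zinc, 2700 mg of lead and 310 mg of cadmium. Bacteria of the strain OP50 were added as food, and the worms were recovered after 48 h at 20 °C in the dark, passed over a net that let the youngest larvae through. The soil of the control groups thus carried the metals too, and both times had the same length of exposure. The labels give 3 independent RNA preparations per group and do not say whether these came from separate cultures, so the p-values measure the spread between preparations, which may be technical. What the sampling times are counted from is not given in the sources used here, and each time had its own worms, so sampling time and worm culture cannot be told apart.

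RNA of whole worms carries the programmes of all tissues at once. In C. elegans the intestine digests food, makes yolk and expresses most genes for detoxification and for defence against ingested microbes. The epidermis lays down a collagen cuticle that is shed at each larval moult under the control of nuclear hormone receptors, and the germ line supplies most transcripts for sperm, oocytes and cell division. Heavy metals are met by metallothioneins, which bind zinc and cadmium, by phytochelatin synthesis and by transporters of the ZIP and CDF families. In RNA of whole worms, fewer cells of a type and less RNA per cell cannot be told apart.

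Signals are log2 values of 28387 probe sets, of which 25546 carried a single gene symbol, for 25478 genes. Correlations between arrays ran from 0.988 to 0.996 within the 14-day control group and from 0.989 to 0.991 within the 0-day control group, and the typical probe set had a standard deviation of 0.150 at 14 days and 0.175 at 0 days (medians over probe sets). The third 14-day array stood apart in the transcripts of the mitochondrial genome, as given with those genes. The labelled stage was checked with the yolk gene vit-2, which adult hermaphrodites express in the intestine. It gave 10.67, 10.60 and 10.61 in 14-day worms, against 10.50, 10.57 and 10.90 in 0-day worms, and the groups overlapped. This gene alone does not show that worm stage was the same at both times. Other values linked to stage did not overlap. The adult collagen gene col-19 and the mean signal of the sperm genes were lower at 14 days, and the mean of the moulting genes was higher. No detection call came with the signals. As a guide to the background, 95% of 1304 chemoreceptor genes, which are used in few neurons of the worm, had a group mean below 3.56 at 14 days and below 3.35 at 0 days. Of 96 called genes named here, 7 had 1 of the 2 control groups under that level. These were C45G9.4, T19B4.9, hsp-16.41 and cnc-9 at 14 days and clec-163, F35E8.7 and T04C12.27 at 0 days. Their fold changes are estimates that the background may hold down, and they also carry the spread between arrays.

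Between the times 3372 probe sets changed (11.9%), of which 1646 were higher and 1726 lower at 14 days, 5.8% and 6.08% of those tested (limma, Benjamini-Hochberg adjusted p under 0.05). Counted once per gene, 1532 genes rose and 1295 fell, 6.01% and 5.08% of 25478 genes, and these shares are the background against which the gene groups below are read. The median change over all genes was -0.02 on the log2 scale. A change of at least 2-fold was reached by 421 called genes that rose (1.65%) and by 347 that fell (1.36%). The 3 values of each time did not overlap in 17.6% of genes with 14 days higher and in 18.5% with 14 days lower. The number of calls was lower when any single control array was left out, which also leaves fewer arrays in its group. Without the second 0-day array 564 probe sets rose and 662 fell, without the first 635 and 695, and without the third 1570 and 1652. Without the second 14-day array the counts were 680 and 737, without the first 923 and 953, and without the third 1103 and 1119.

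Long genes were more often higher and short genes more often lower, a gradient that runs through many of the gene groups described here. Gene span is the RefSeq genomic length of a gene, introns included. Among protein-coding genes, those that rose had a median span of 4573 bases and those that fell 1304 bases, against 2068 bases for all 18832. Among those with a mean log2 signal above 7, split into deciles by span, the decile with the longest genes held 192 genes that rose and 2 that fell of 612, with a median change of 0.40. The decile with the shortest held 13 that rose and 158 that fell of 612, with a median change of -0.35. On each array, the mean centred signal of the longest decile minus that of the shortest was 0.30, 0.40 and 0.34 in 14-day control worms, against -0.53, -0.54 and -0.19 in 0-day control worms. The 2 control groups did not overlap in this offset. In nZVI soil it was 0.15, 0.05 and 0.46 at 14 days, against -0.14, -0.28 and -0.03 at 0 days, again without overlap. At 4 months it was -0.57, 0.11 and -0.14 in control soil and -0.11, 0.27 and 0.26 in nZVI soil. The offset thus also varied between arrays of the same group. The part of this gradient in any single result was not tested beyond a second fit, in which each array's values were centred within classes of gene span. That fit holds the 18832 protein-coding genes alone and called 1225 of them higher and 1083 lower, against 1689 and 1329 for the same genes without centring. Its counts are given below for the gene groups whose members changed, and non-coding RNAs have no value in it.

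**Figure D1:**
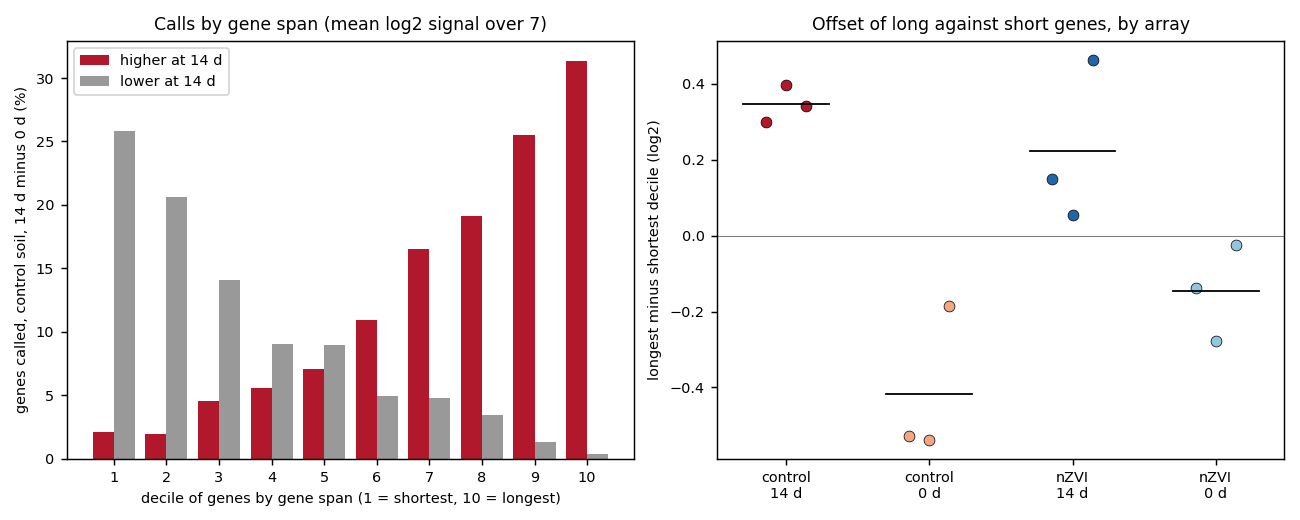
The left panel plots the percentage of protein-coding genes called higher (red) or lower (grey) at 14 days against 0 days in control soil, by decile of gene span from shortest (1) to longest (10), for genes with a mean log2 signal over 7. The right panel plots, for each array, the median over genes of the centred log2 signal in the longest decile minus that in the shortest. Lines are at each group's mean. The 3 arrays of 14-day control worms lie between 0.30 and 0.40, above all 3 of 0-day control worms.

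The 15 largest rises with groups that did not overlap spanned 3.73-fold to 5.81-fold, and 14 of them were protein-coding genes. The largest was that of cyts-1, with log2 signals of 6.61, 6.89 and 7.12 in 14-day worms, against 3.93, 4.64 and 4.42 in 0-day worms, a 5.81-fold rise (log2 change 2.54 ± 0.42 SE, adjusted p = 0.00278). F10A3.4 gave 8.17, 8.17 and 7.72 at 14 days, against 5.54, 5.11 and 5.99 at 0 days, and rose 5.56-fold (adjusted p = 0.00213). C12D12.1 gave 10.22, 10.40 and 10.27, against 7.82, 7.92 and 8.24, a 4.94-fold rise without overlap (adjusted p = 0.000814). The neighbouring names F35E8.7 and F35E8.6 rose 4.74-fold and 4.62-fold (adjusted p = 0.00265 and 0.005). The body-shape gene dpy-6, which encodes a mucin-like protein, rose 4.40-fold (adjusted p = 0.00894). Others in the set were Y45F10C.2 at 3.88-fold, M02D8.2 at 3.85-fold, pqn-63 at 3.73-fold and the non-coding T04C12.27 at 3.73-fold. The remaining members were an infection response gene, 3 lectins and a protease, described below with their families. All 15 stayed called when any 1 of the 6 control arrays was left out. In nZVI soil 10 of the 15 also had a positive change, 7 of them past the threshold, and for 5 the change differed between the soils.

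The 15 largest falls spanned 4.34-fold to 12.6-fold, and 10 of them were non-coding RNAs, with gene spans of 61 to 1157 bases over the 15. The protein-coding C45G9.4 fell most, with log2 signals of 3.39, 3.09 and 3.13 in 14-day worms, against 7.46, 6.79 and 6.33 in 0-day worms (log2 change -3.66 ± 0.30 SE, adjusted p = 2.13e-05). The 14-day values lay close together and the 0-day values further apart, with no overlap between the groups. The same gene gave 2.96, 3.31 and 3.31 in 14-day nZVI-soil worms, against 6.92, 7.14 and 6.34 in 0-day nZVI-soil worms, and its change did not differ detectably between soils (difference -0.05 ± 0.42 SE, adjusted p = 0.976). Of the other protein-coding genes, C34D4.3 was 5.48-fold lower at 14 days (adjusted p = 0.00288), F36D1.4 4.54-fold lower (adjusted p = 0.00787), and ND6 and ND4L of the mitochondrial genome were also in the set. The non-coding RNAs were F52H3.10, T16A9.6, W05B2.10, Y53F4B.58, ZK265.11, T19B4.9, R151.16, T04C12.17, ZK131.14 and C32D5.18. Among them, T16A9.6 gave 6.05, 5.64 and 5.02 at 14 days, against 8.34, 8.24 and 8.2 at 0 days (log2 change -2.69 ± 0.36 SE, adjusted p = 0.000814). All 15 had a negative change in nZVI soil too, 12 past the threshold, and for none was a difference between soils called. Calls were lost without 0-day array 2 for F52H3.10, without 14-day array 1 or 0-day array 1 for ND4L, and without any of arrays 1 and 2 of either time for Y53F4B.58 and ZK131.14, whose adjusted p reached 0.0548, 0.0581, 0.0905 and 0.135.

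**Figure D2:**
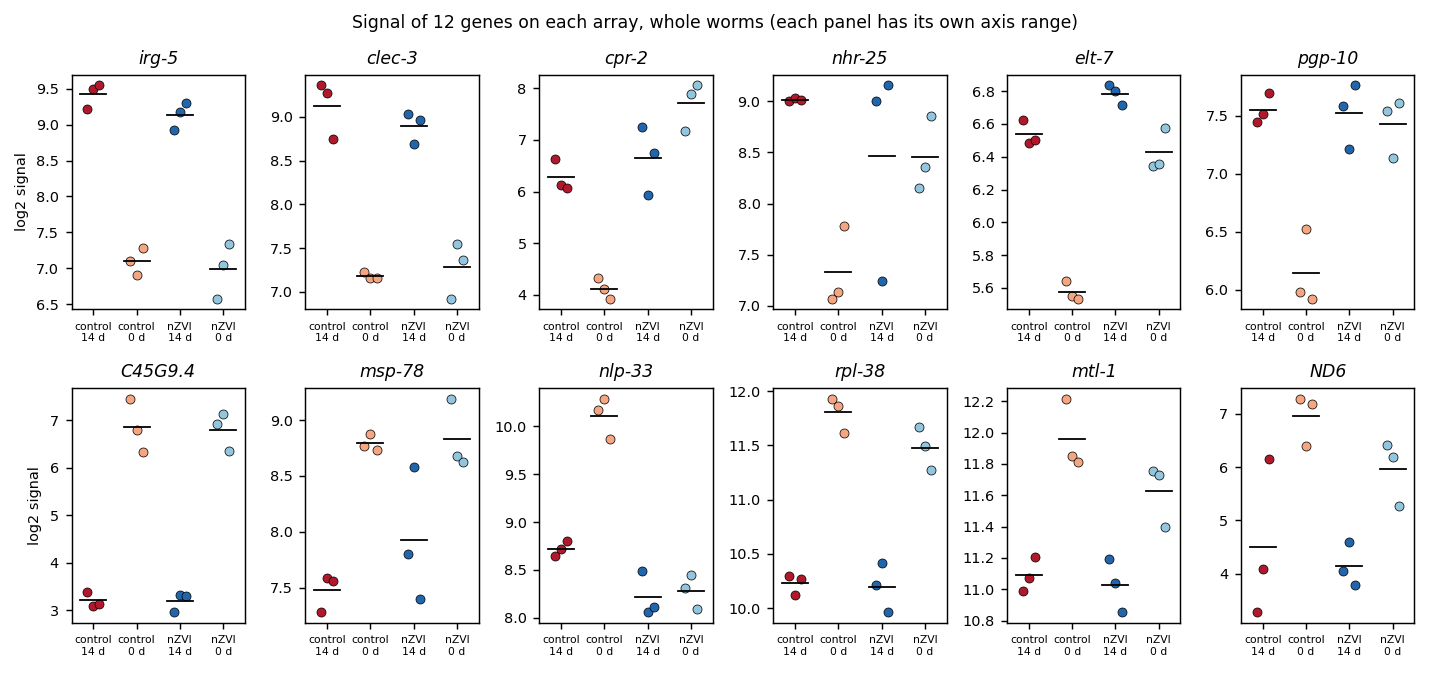
Log2 signal of 12 genes on each array, with 14-day and 0-day control soil first and the same times in nZVI soil after them; points are arrays and lines are means over 3 arrays. The control groups do not overlap in any of the 12 genes, the first 6 being higher and the last 6 lower at 14 days, while in nZVI soil the times overlap for cpr-2, nhr-25, pgp-10 and nlp-33.

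Some genes of the defence against microbes rose at 14 days. Of the 8 irg genes measured, named for their induction by infection, 3 rose and none fell (none at an unadjusted p under 0.05 either, limma), with a median change of 0.65 beside -0.02 over all genes. irg-5 gave log2 signals of 9.22, 9.49 and 9.55 in 14-day worms, against 7.10, 6.90 and 7.29 in 0-day worms, a 5.00-fold rise (log2 change 2.32 ± 0.25 SE, adjusted p = 0.000213). irg-6 rose 3.03-fold (adjusted p = 0.000861) and irg-7 2.24-fold (adjusted p = 0.005). These 3 stayed called without any single control array, and centring by gene span left 4 of the 8 called higher. The same list also rose in nZVI soil, with 5 of 8 called and a median of 1.01. The lists of lysozymes and saposin-like proteins, of pals genes and of secreted cysteine-rich scl genes had no rise called in control soil. Of 188 F-box A genes, 5 rose (2.66%, beside 6.01% of all genes) and 6 fell (3.19%, beside 5.08%). Of 44 lysozymes and saposin-like proteins 3 fell (6.82%) and of 37 pals genes 2 fell (5.41%), beside 5.08% of all genes. At an unadjusted p under 0.05 (limma), 3 rose and 7 fell in the former list, and 3 rose and 5 fell in the latter. None of 24 secreted cysteine-rich scl genes was called (1 rose and 1 fell at an unadjusted p under 0.05).

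C-type lectins are secreted or membrane proteins with a sugar-binding fold, many of them made by the intestine on infection. Of 247 measured, 23 rose (9.31%, beside 6.01% of all genes) and 3 fell (1.21%, beside 5.08%). clec-3 gave 9.36, 9.28 and 8.75 in 14-day worms, against 7.23, 7.16 and 7.15 in 0-day worms, a 3.86-fold rise with no overlap (adjusted p = 0.000213). clec-143 rose 4.31-fold, with 7.42, 7.52 and 7.58 at 14 days, against 5.32, 5.08 and 5.81 at 0 days (adjusted p = 0.000814). Also higher were clec-121 at 3.96-fold, clec-9 at 2.72-fold, clec-186 at 2.27-fold and clec-163 at 2.00-fold (adjusted p = 0.00265, 0.00261, 0.00296 and 0.00419). Most members did not pass the test, and the median change of the family was 0.06. Centring by gene span left the counts at 23 and 3, but leaving out array 1 or 2 of either time brought the rises to 11 or 12 and the falls to 1 or 0.

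Some digestive proteases and markers of the intestine also rose, with no member of either list lower even at an unadjusted p under 0.05 (limma). Of 28 cathepsin-like and aspartyl proteases, 4 rose and none fell, with a median change of 0.19. The cathepsin B-like protease gene cpr-2 gave log2 signals of 6.63, 6.12 and 6.07 in 14-day worms, against 4.32, 4.10 and 3.92 in 0-day worms, a 4.47-fold rise (adjusted p = 0.000717). The aspartyl protease gene asp-7 rose 2.06-fold (adjusted p = 0.00726). Of 10 intestine markers, 4 rose and none fell, with a median change of 0.58. elt-7, which encodes a GATA factor of the intestine, gave 6.62, 6.49 and 6.50 in 14-day worms, against 5.64, 5.55 and 5.54 in 0-day worms (1.95-fold, adjusted p = 0.00562). The intermediate filament gene ifc-2 rose 2.21-fold (adjusted p = 0.00499), the peptide transporter gene pept-1 1.85-fold (adjusted p = 0.0171) and elt-2, the main GATA factor of the differentiated intestine, 1.62-fold (adjusted p = 0.0174). The esterase gene ges-1 gave 5.97, 5.90 and 6.04 at 14 days, against 5.27, 5.15 and 5.59 at 0 days, without passing the test (adjusted p = 0.0684). The mean signal of the 10 markers was 8.44, 8.46 and 8.41 in 14-day worms, against 7.82, 7.81 and 8.05 in 0-day worms, so the groups did not overlap. In nZVI soil these means were 9.02, 8.61 and 8.96 at 14 days, against 8.73, 8.74 and 8.93 at 0 days, with overlap, and no marker was called there (1 was higher and 1 lower at an unadjusted p under 0.05, limma). After centring by gene span 4 markers were called higher, and between 2 and 5 without single arrays, fewest without 14-day array 1 or 0-day array 2. elt-2 lost its call without 14-day array 1 or 0-day array 2, and pept-1 without array 1 or 2 of either time (adjusted p up to 0.0943 and 0.0915), and the proteases called were 2 without 14-day array 1 or 0-day array 1.

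Some regulators and enzymes of the moult rose at 14 days. Of 23 genes of the moulting list, 6 rose and none fell (13 and none at an unadjusted p under 0.05, limma), with a median change of 0.52. The nuclear hormone receptor gene nhr-25, needed for moulting and for epidermal development, gave 9.0, 9.03 and 9.01 in 14-day worms, against 7.07, 7.14 and 7.78 in 0-day worms, a 3.22-fold rise (log2 change 1.69 ± 0.35 SE, adjusted p = 0.00689). nhr-23, another receptor that drives the moulting cycle, rose 1.60-fold (adjusted p = 0.0277). mlt-7, a peroxidase that crosslinks cuticle proteins, rose 2.32-fold (adjusted p = 0.00421), and mlt-11, a protease inhibitor of the apical matrix, 2.34-fold (adjusted p = 0.0141). The fibrillin-related gene fbn-1 rose 2.43-fold and the kinase gene nekl-3 1.57-fold (adjusted p = 0.031 and 0.0398). The median gene of this list spans 5328 bases, longer than the typical gene, and centring by gene span left 5 of 23 called higher with a median of 0.32, while 2 were called without 0-day array 1 or 2. nhr-25 and mlt-7 stayed called without any single array. mlt-11 lost its call without 0-day array 1 or 2, nhr-23 and fbn-1 without every array except 0-day array 3, and nekl-3 without any of the 6 (adjusted p up to 0.071, 0.136, 0.129 and 0.138).

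Few cuticle collagens were called in either direction, and cuticlins and astacins rose where they passed the test. Of 159 collagens outside the adult, furrow and body-shape sets, 2 rose and 3 fell in control soil, with a median change of -0.21, and none was called without array 2 of either time. Of 8 adult and pre-adult collagens, 1 rose and none fell (1 at an unadjusted p under 0.05, limma), with a median of -0.13 that turned to 0.14 after centring by gene span. The call was that of the blister gene bli-1, which rose 2.24-fold (adjusted p = 0.0436) and lost its call without any 1 of the 6 arrays (adjusted p 0.0656 to 0.142). col-19, an adult-specific collagen, gave 6.50, 6.38 and 6.40 in 14-day worms, against 7.64, 7.25 and 7.02 in 0-day worms, without passing the test (adjusted p = 0.0561). col-157 rose 2.46-fold and col-20 was 2.18-fold lower (adjusted p = 0.0132 and 0.0211), both calls being lost without 14-day array 2 or 0-day arrays 1 or 2 and that of col-20 also without 14-day array 1 (adjusted p up to 0.0726 and 0.0943). Of 36 astacin metalloproteases, a family that includes moulting enzymes, 4 rose and none fell (9 and none at an unadjusted p under 0.05, limma), and nas-33 led with 4.71, 4.95 and 5.13 at 14 days, against 3.55, 3.55 and 3.99 at 0 days (2.35-fold, adjusted p = 0.00137). Of 34 cuticlins, structural proteins of the cuticle that are not collagens, 3 rose (8.82%, beside 6.01% of all genes) and none fell. At an unadjusted p under 0.05 (limma), 9 of the cuticlins rose and none fell, and their median change was 0.25. Their mean signal was 4.64, 4.67 and 4.84 in 14-day worms, against 4.26, 4.41 and 4.52 in 0-day worms, without overlap. Centring by gene span left 1 astacin and 1 cuticlin called higher, against 4 and 5 in the uncentred fit of the protein-coding genes, and without 0-day array 1 the counts were 1 and 1, and no cuticlin was called without array 2 of either time.

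Nuclear hormone receptors, a large family of ligand-regulated transcription factors in nematodes, were called higher more often than lower. Of 271 measured, 23 rose (8.49%, beside 6.01% of all genes) and 1 fell (0.369%, beside 5.08%), with a median change of 0.11. nhr-28 gave 7.87, 8.07 and 8.41 in 14-day worms, against 7.26, 6.93 and 7.12 in 0-day worms (2.01-fold, adjusted p = 0.00616), and nhr-116 rose 1.99-fold (adjusted p = 0.00426). Centring by gene span changed the counts to 17 and 4, and without 0-day array 1 or 2, 8 rose and none fell. In nZVI soil 5 of the 271 rose and 6 fell between the same times.

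Oxidising and conjugating enzymes and transporters of detoxification were called higher more often than lower, except for the glutathione S-transferases. Of 74 cytochrome P450 genes, which oxidise foreign compounds and lipids, 7 rose (9.46%) and 1 fell (1.35%). Of 67 UDP-glucuronosyltransferases, which conjugate sugars to such compounds, 5 rose (7.46%, near the 6.01% of all genes) and 1 fell (1.49%). Of 49 ABC transporters, which pump conjugates and drugs across membranes, 8 rose (16.3%) and 1 fell (2.04%). pgp-10 gave log2 signals of 7.45, 7.51 and 7.70 in 14-day worms, against 5.98, 6.53 and 5.93 in 0-day worms, a 2.66-fold rise (adjusted p = 0.00261), and pgp-8 rose 2.93-fold (adjusted p = 0.005). cyp-14A4 rose 2.34-fold, with 4.57, 4.74 and 4.97 at 14 days, against 3.52, 3.30 and 3.77 at 0 days (adjusted p = 0.000814). ugt-48 rose 2.53-fold and ugt-10 2.29-fold (adjusted p = 0.005 and 0.0039). These 5 genes stayed called without any single control array and after centring by gene span. The ABC transporters called changed to 4 higher and 3 lower with that centring, against 11 and 1 in the uncentred fit of the protein-coding genes, and to 2 higher and none lower without 14-day array 2 or 0-day array 2. Without 14-day arrays 2 or 3 or 0-day array 2, 4 P450 genes rose, and without those or 0-day array 1, 2 UDP-glucuronosyltransferases. Of 48 glutathione S-transferases, 2 rose (4.17%) and 3 fell (6.25%).

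**Figure D3:**
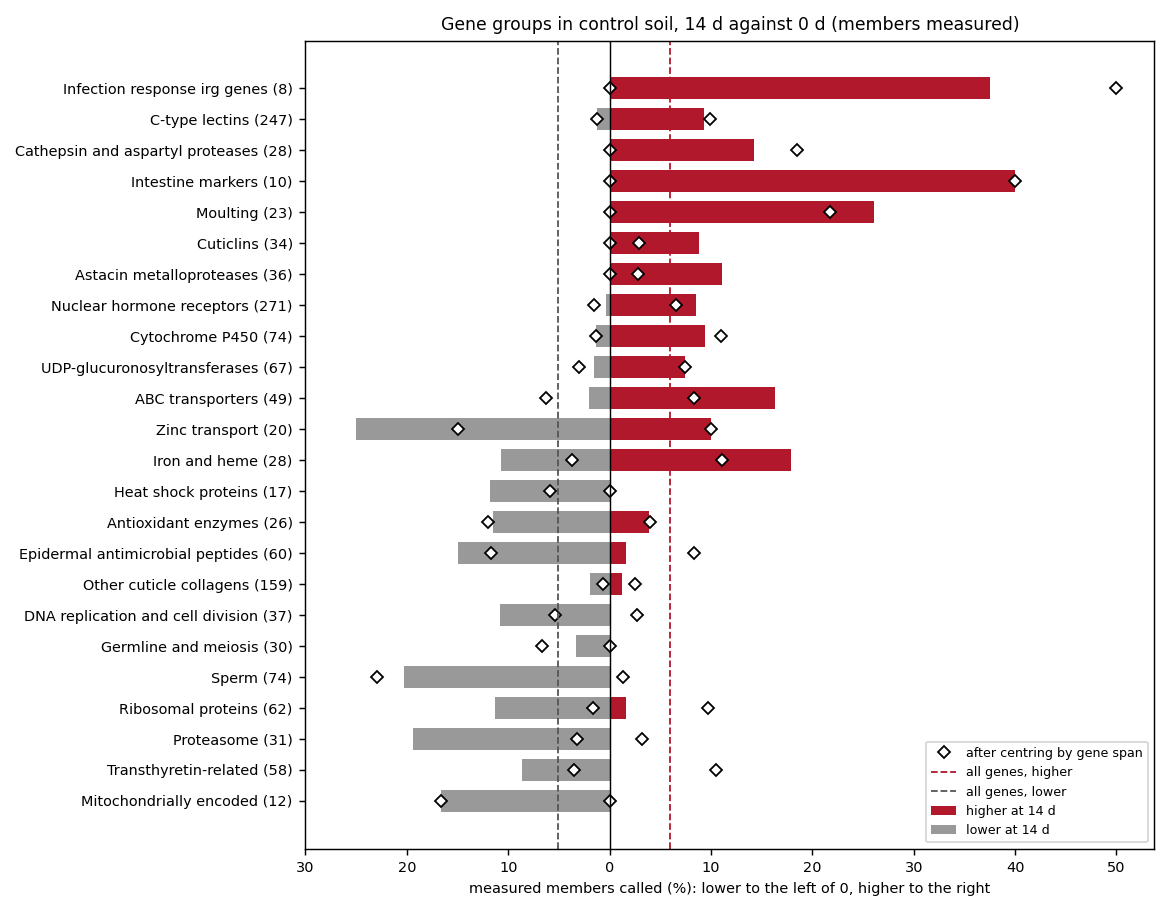
Percentage of the measured members of 24 gene groups called higher (red, to the right of 0) or lower (grey, to the left) at 14 days against 0 days in control soil, with the number of members in brackets. Dashed lines mark the shares over all genes, 6.01% higher and 5.08% lower, and diamonds give the shares after centring by gene span, in the fit of the protein-coding genes; the proteasome and the ribosomal proteins are among the groups whose diamonds move far from their bars.

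Genes that bind or respond to metals were lower at 14 days where they passed the test. Of the 6 metallothionein, phytochelatin and numr genes, 2 fell and none rose (1 at an unadjusted p under 0.05, limma). The metallothionein gene mtl-1 gave log2 signals of 10.99, 11.08 and 11.20 in 14-day worms, against 12.22, 11.85 and 11.81 in 0-day worms, a 1.83-fold lower level with no overlap (log2 change -0.87 ± 0.18 SE, adjusted p = 0.00701). The other metallothionein, mtl-2, gave 11.44, 11.19 and 11.27, against 11.79, 11.85 and 11.70, also without overlap, but did not pass the test (adjusted p = 0.0522). numr-1, a metal-responsive nuclear gene, was 1.93-fold lower (adjusted p = 0.0411), while its near copy numr-2 gave 6.01, 6.89 and 6.36, against 5.76, 5.05 and 6.25, with overlapping groups (adjusted p = 0.398). The 2 numr genes are close in sequence, so their probe sets may read each other's transcripts. Phytochelatin synthase, pcs-1, and the phytochelatin transporter hmt-1 did not pass (changes of 0.18 and 0.48, adjusted p = 0.576 and 0.105). Of 5 genes of the cadmium-responsive cdr family, 2 fell. cdr-4 was 1.47-fold lower (adjusted p = 0.00991) and cdr-2 1.68-fold lower (adjusted p = 0.0358), although the groups of cdr-2 overlapped, with 3.74, 3.86 and 4.54 at 14 days, against 5.12, 4.82 and 4.44 at 0 days. cdr-1, the member named for its induction by cadmium, gave 7.82, 7.74 and 7.62 at 14 days, against 7.90, 7.86 and 7.65 at 0 days (change -0.08, adjusted p = 0.836). These genes are short, and after centring by gene span no member of either list was called, mtl-1 giving -0.47 (adjusted p = 0.0524). mtl-1 stayed called without any single array, whereas numr-1 and cdr-2 lost their calls without array 1 or 2 of either time and cdr-4 without 0-day array 2 (adjusted p up to 0.149, 0.163 and 0.0568).

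Zinc and iron genes split in both directions. Of 20 zinc transport genes, 5 fell and 2 rose, and 3 fell without 14-day arrays 2 or 3 or 0-day arrays 2 or 3. The ZIP family genes zipt-2.4, zipt-15 and zipt-3, whose products carry zinc into the cytosol, were 1.69-fold, 1.62-fold and 1.59-fold lower (adjusted p = 0.00672, 0.0072 and 0.0114). zipt-15 gave 8.90, 8.96 and 8.97 in 14-day worms, against 9.71, 9.52 and 9.67 in 0-day worms, and spans 17557 bases, so its fall ran against the gradient of long genes. All 3 stayed called without any single array and after centring by gene span. sur-7, of the CDF family that moves zinc out of the cytosol, rose 1.43-fold (adjusted p = 0.0167), a call lost without 14-day array 2 or 0-day array 2 (adjusted p up to 0.0856). Of 28 iron and heme genes, 5 rose and 3 fell, and without array 2 of either time 1 rose and 1 fell. hrg-11.3 rose 2.52-fold (adjusted p = 0.00617) and the globin gene glb-1 was 1.96-fold lower, with 5.29, 5.39 and 5.55 at 14 days, against 6.21, 6.61 and 6.33 at 0 days (adjusted p = 0.00167). Ferritin, ftn-1, which stores iron, gave 4.55, 4.39 and 4.42 at 14 days, against 4.50, 4.93 and 4.3 at 0 days, and did not pass the test (change -0.13 ± 0.24 SE, adjusted p = 0.804).

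Stress genes were called in small numbers per list, beside 6.01% of all genes that rose and 5.08% that fell. Of 17 heat shock genes, 2 fell (11.8%) and none rose (6 and 1 at an unadjusted p under 0.05, limma). hsp-16.41, a small heat shock protein, gave 2.64, 2.56 and 2.62 in 14-day worms, against 4.50, 3.37 and 3.60 in 0-day worms, without overlap (2.33-fold lower, adjusted p = 0.00358). The abundant chaperone hsp-90 was 1.36-fold lower (adjusted p = 0.0304), a call lost without any array except 0-day array 2 (adjusted p up to 0.111), and hsp-16.2 gave 6.23, 6.22 and 6.25, against 6.62, 5.94 and 6.44 (adjusted p = 0.876). Of 18 genes of the endoplasmic reticulum stress response 1 rose, the transcription factor atf-6, with 9.44, 9.4 and 9.56 at 14 days, against 8.32, 8.31 and 8.70 at 0 days (2.02-fold, adjusted p = 0.00477). Of 13 genes of the SKN-1 and glutathione list 1 rose, gst-38 (1.48-fold, adjusted p = 0.0251), a call that only the fit without 0-day array 3 kept (adjusted p up to 0.104). Its best-known reporters did not pass, gst-4 with 7.12, 7.69 and 8.18 at 14 days, against 8.07, 8.09 and 7.73 at 0 days, and gcs-1 with a change of -0.23 (adjusted p = 0.52 and 0.384). Of 26 antioxidant enzymes, 1 rose (3.85%) and 3 fell (11.5%). The peroxisomal catalase gene ctl-2 rose 1.69-fold (adjusted p = 0.00835), and mitochondrial thioredoxin, trx-2, and the peroxiredoxin prdx-6 were 2.05-fold and 1.96-fold lower (adjusted p = 0.00306 and 0.00467). The mitochondrial superoxide dismutase gene sod-2 was 1.67-fold lower (adjusted p = 0.0315), a call kept without 14-day array 1 and lost without any other array (adjusted p up to 0.13), and sod-3 did not pass (change 0.43, adjusted p = 0.306). In the hypoxia and sulphide list of 8 genes the 1 that fell was F22B5.4 (1.78-fold lower, adjusted p = 0.0096), a call lost without 0-day array 1 (adjusted p = 0.0578).

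Antimicrobial peptide genes, in a list named for the epidermis, fell more often than they rose. Of 60 measured peptides with the gene names nlp, cnc, fip, fipr and abf, 9 fell (15.0%) and 1 rose, with a median change of -0.20 that turned to 0.03 after centring by gene span. nlp-33 gave 8.64, 8.72 and 8.80 in 14-day worms, against 10.17, 10.29 and 9.86 in 0-day worms, and was 2.62-fold lower (log2 change -1.39 ± 0.18 SE, adjusted p = 0.000676). The caenacin genes cnc-8, cnc-9 and cnc-11 were 2.27-fold, 2.08-fold and 2.05-fold lower (adjusted p = 0.00787, 0.00851 and 0.00537). fip-6 was 3.09-fold lower with uneven arrays, at 5.4, 5.74 and 7.02 at 14 days, against 8.44, 7.59 and 7.02 at 0 days (adjusted p = 0.00917). The peptides are encoded by short genes with a median span of 418 bases, and after that centring 7 were lower and 5 higher, nlp-33 and the 3 caenacins remaining called. fip-6 lost its call without 0-day array 1 and cnc-9 without 0-day array 2 (adjusted p = 0.0555 and 0.0536), and the falls counted were 4 without 0-day array 1 and 5 without 14-day array 1 or 0-day array 2.

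Sperm genes fell more often than all genes did. Of 74 measured, 15 fell (20.3%) and none rose (28 and 1 at an unadjusted p under 0.05, limma), with a median change of -0.27. msp-78, a major sperm protein gene, gave 7.28, 7.59 and 7.56 in 14-day worms, against 8.77, 8.88 and 8.73 in 0-day worms, and was 2.49-fold lower (adjusted p = 0.00499). The nematode-specific peptide genes nspc-18 and nspd-10 were 3.01-fold and 2.85-fold lower, and spe-18, needed for sperm formation, 2.33-fold lower (adjusted p = 0.00168, 0.00265 and 0.00655). Members of the msp and nspd families are nearly identical in sequence, so their probe sets may share transcripts and are not independent. The mean signal of the 74 genes was 4.05, 4.06 and 3.91 at 14 days, against 4.33, 4.48 and 4.36 at 0 days, with no overlap. Centring by gene span left 17 lower and 1 higher, and leaving out single arrays gave 8 to 15 lower, lowest without 0-day array 2.

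Other genes of the germ line were called less widely. Of 30 germline and meiosis genes 1 fell (3.33%) and none rose (8 and none at an unadjusted p under 0.05, limma), while 25 of the 30 changes were negative. The groups of 11 of the 30 did not overlap, with 14 days lower, beside 18.5% of all genes. The mean signal of the 30 was 7.5, 7.48 and 7.20 in 14-day worms, against 7.60, 7.69 and 7.76 in 0-day worms, without overlap. The gene called was htp-1 of the meiotic chromosome axis, with 3.67, 4.00 and 3.4 in 14-day worms, against 4.83, 4.89 and 4.93 in 0-day worms (2.29-fold lower, adjusted p = 0.0108). Of 25 oocyte and eggshell genes 1 fell, the oocyte surface gene egg-2 (1.64-fold lower, adjusted p = 0.0383, and between 0.0628 and 0.115 without single arrays). Of 37 genes of DNA replication and cell division 4 fell (10.8%) and none rose (11 and 2 at an unadjusted p under 0.05, limma), led by the replication licensing gene cdc-6 at 1.81-fold lower (adjusted p = 0.0102). Without 14-day arrays 2 or 3 or 0-day arrays 2 or 3, 1 of the 37 was called lower, and 2 were after centring by gene span, against 6 in the uncentred fit of the protein-coding genes. None of the 5 yolk protein genes passed the test (1 was lower at an unadjusted p under 0.05, limma).

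**Figure D4:**
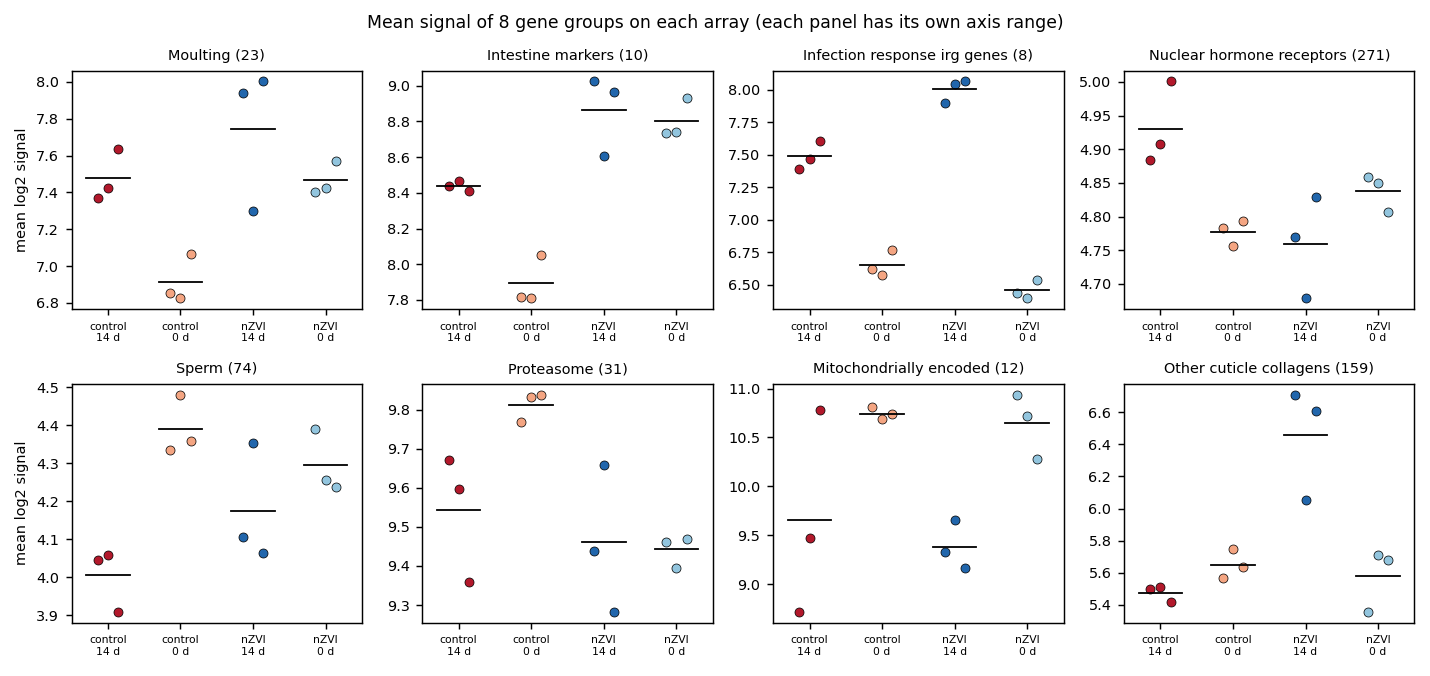
Mean log2 signal of 8 gene groups on each array, with the number of genes in brackets, for control soil at 14 and 0 days and nZVI soil at 14 and 0 days; points are arrays and lines are means over 3 arrays. In control soil the moulting, intestine, irg and nuclear hormone receptor means lie higher at 14 days without overlap and the sperm, proteasome and collagen means lower, and the third 14-day array stands at the 0-day level for the mitochondrial genes.

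Genes of protein synthesis and breakdown had negative changes in most members, a direction that turned for the ribosomal genes after centring by gene span. Of 62 ribosomal protein genes 7 fell and 1 rose, and 53 of the 62 had a negative change. rpl-38 gave 10.30, 10.12 and 10.27 in 14-day worms, against 11.93, 11.87 and 11.62 in 0-day worms, and was 2.98-fold lower (adjusted p = 0.00265). Of 31 proteasome subunits 6 fell (19.4%) and none rose (15 and 1 at an unadjusted p under 0.05, limma), with a median change of -0.30 and 28 negative changes, among them pas-4 of the core at 1.48-fold lower and rpn-8 of the cap at 1.39-fold lower (adjusted p = 0.0161 and 0.0163). Both groups hold short genes, with median spans of 736 and 1311 bases. After that centring the ribosomal counts turned to 6 higher and 1 lower, with a median of 0.10, and the proteasome counts to 1 and 1. Without 14-day array 3 or 0-day array 2 no proteasome subunit was called, and ribosomal falls numbered 1 to 7 without single arrays, fewest without 0-day array 1; pas-4 lost its call without 14-day arrays 2 or 3 or 0-day arrays 1 or 2, and rpn-8 without 14-day array 3 or 0-day arrays 1 or 2 (adjusted p up to 0.0776 and 0.0685).

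Transcripts of the mitochondrial genome were lower on average and uneven between arrays. The mean signal of 12 protein-coding genes was 8.72, 9.47 and 10.78 in 14-day worms, against 10.81, 10.69 and 10.74 in 0-day worms, so the third 14-day array stood at the 0-day level. All 12 changes were negative, with a median of -0.89, and 2 passed the test. ND6, of complex I, gave 3.28, 4.09 and 6.14 at 14 days, against 7.29, 6.40 and 7.18 at 0 days (5.47-fold lower, adjusted p = 0.00821), and ND4L 7.11, 8.35 and 9.63, against 10.85, 10.54 and 10.39 (4.69-fold lower, adjusted p = 0.012). The cytochrome oxidase genes COX1 and COX3 gave 12.04, 12.42 and 13.04 and 11.49, 12.01 and 12.89 at 14 days, against 12.87, 12.90 and 12.91 and 12.82, 12.89 and 12.83 at 0 days, with overlapping groups (adjusted p = 0.18 and 0.0529). Without the third 14-day array all 12 were called lower, and without 14-day array 1 or 0-day array 1 the count was 1. In nZVI soil the means were 9.33, 9.66 and 9.17 at 14 days, against 10.94, 10.72 and 10.28 at 0 days, and 6 of 12 fell. Of 10 genes of the mitochondrial stress response, encoded in the nucleus, 3 fell and 1 rose, with the import channel gene timm-23 at 1.82-fold lower (adjusted p = 0.00668), a call kept without any single array and after centring by gene span. The falls in this list numbered 1 without 14-day array 2 or 0-day arrays 1 or 2.

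Metabolic genes changed in both directions. Of 69 genes of fasting and beta-oxidation 6 rose (8.70%) and 4 fell (5.80%), of 34 genes of fatty acid synthesis and desaturation 3 rose (8.82%) and 4 fell (11.8%), and of 19 glycolytic genes 2 rose (10.5%) and 1 fell (5.26%). Without 14-day arrays 2 or 3 or 0-day arrays 1 or 2 the beta-oxidation counts were 2 and 1. acox-1.1, an acyl-CoA oxidase of the peroxisome, gave 6.62, 6.72 and 6.70 in 14-day worms, against 5.15, 5.64 and 5.99 in 0-day worms (2.13-fold, adjusted p = 0.00706), and the fatty acid CoA ligase gene acs-5 rose 1.89-fold (adjusted p = 0.00265). The pyruvate kinase gene pyk-2 rose 1.81-fold, with 6.89, 6.84 and 7.22 at 14 days, against 6.09, 6.12 and 6.17 at 0 days (adjusted p = 0.00237). hlh-30, a transcription factor of lysosomal and autophagy genes, gave 11.40, 11.49 and 11.64, against 10.34, 10.14 and 10.57, a 2.23-fold rise (adjusted p = 0.00399). These 4 genes kept their calls without any single control array and after centring by gene span.

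The change between the times was then set against that in nZVI soil, which shares no array with it. Correlations between arrays ran from 0.980 to 0.994 within the 14-day nZVI group and from 0.988 to 0.990 within the 0-day nZVI group. The second 14-day nZVI array stood apart in some lists. Its mean for the germline and meiosis genes was 8.04, against 7.29 and 7.30 on the other arrays of that group. In nZVI soil 1116 genes rose (4.38%) and 965 fell (3.79%). The test of the difference between the changes called 275 of 25478 genes (1.08%), 133 of them (0.522%) with a more positive change in control soil and the others with a more positive change in nZVI soil. On all probe sets it called 299 (1.05%), and between 155 and 368 when 1 of the 12 arrays was left out, lowest without the second 14-day control array. Across genes, which are not independent replicates, the changes of the 2 soils correlated at 0.338, as a description.

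Collagens differed between soils. Of the 159 other collagens, 2 rose in control soil, with a median change of -0.21, against 66 that rose in nZVI soil, with a median change of 0.69. The difference was called for 44 of them, all with a more positive change in nZVI soil. Of the 8 adult and pre-adult collagens 7 differed in the same direction, with a median change of -0.13 in control soil and 2.45 in nZVI soil. bli-1 changed by 1.16 in control soil and by 3.97 in nZVI soil (difference -2.81 ± 0.51 SE, adjusted p = 0.00941). col-19 changed by -0.88 in control soil and by 1.37 in nZVI soil (difference -2.25 ± 0.41 SE, adjusted p = 0.00955).

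Several of the strongest rises in control soil were not shared by nZVI soil. cpr-2 changed by 2.16 in control soil and by -1.06 in nZVI soil (difference 3.22 ± 0.40 SE, adjusted p = 0.000338). Its nZVI-soil signals were 7.26, 5.93 and 6.75 at 14 days, against 7.17, 7.90 and 8.06 at 0 days, so that the 0-day control worms held the lowest values of the 4 groups. cyts-1 differed by 3.36 ± 0.60 and F35E8.6 by 3.35 ± 0.61 (SE, adjusted p = 0.009 and 0.00955), and clec-121 by 2.74 ± 0.46 (SE, adjusted p = 0.00614). irg-6 rose more in nZVI soil, changing by 1.60 in control soil and by 4.93 in nZVI soil (difference -3.32 ± 0.31 SE, adjusted p = 1.35e-05). Also different between soils, without a call in control soil, were cdr-1 with changes of -0.08 in control and 1.53 in nZVI soil and ftn-1 with -0.13 and -2.92 (adjusted p of the difference = 0.00226 and 0.000304). None of the 23 moulting genes, the 10 intestine markers, the 271 nuclear hormone receptors and the 74 sperm genes was called for a difference between soils (limma), which does not show that their changes were alike. At an unadjusted p under 0.05 the change was more positive in control soil for 4 moulting genes, 3 intestine markers, 45 nuclear hormone receptors and 1 sperm gene, and more negative for 0, 0, 1 and 6.

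**Figure D5:**
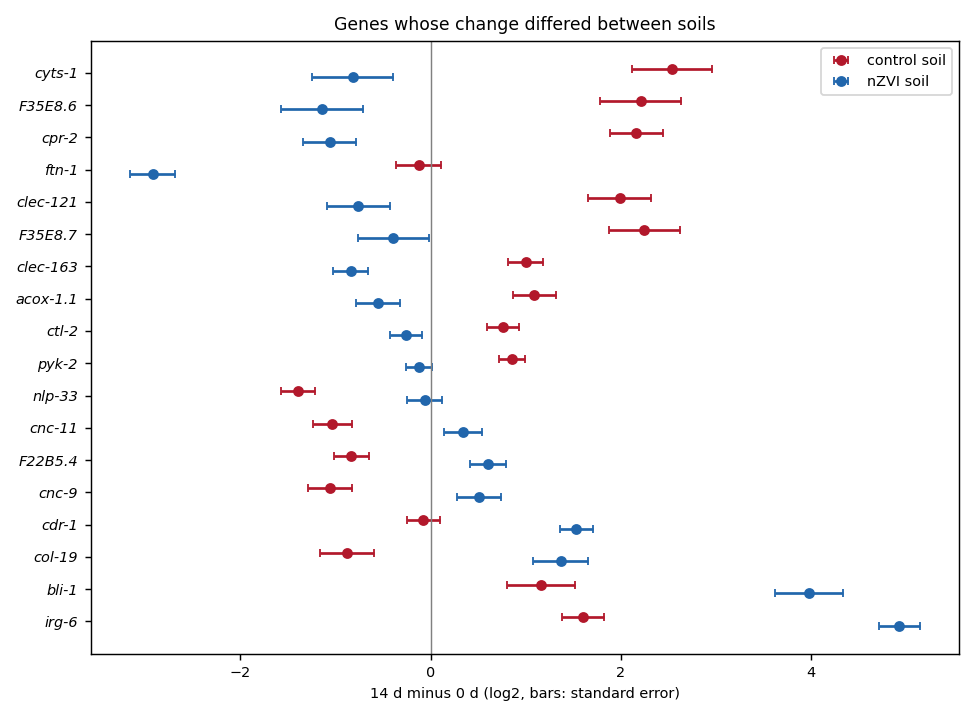
Change between 14 and 0 days on the log2 scale in control soil (red) and nZVI soil (blue) for 18 named genes whose change differed between soils, ordered from the most positive difference, control soil minus nZVI soil, at the top to the most negative at the bottom; bars are standard errors. cyts-1 at the top changed by 2.54 and -0.82, and irg-6 at the bottom by 1.60 and 4.93.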

How the data were processed

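RNA of whole worms was labelled and hybridised to 18 whole-transcript C. elegans gene arrays, 3 for each of 6 groups of soil and sampling time. The authors deposited log2 signals per probe set, made by RMA in the Transcriptome Analysis Console, per the submitters' processing notes; the genome build is not given in the sources used here. Probe sets were named from the platform annotation, and symbols were updated through Entrez IDs to RefSeq. Of 28387 probe sets, 25546 had 1 symbol, 646 several and 2195 none. For genes with more than 1 probe set (57), that with the highest mean over the 18 arrays stands for the gene.

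All 18 arrays were fitted with limma 3.58.1 in R 4.3.3, 1 coefficient per group, two-sided, with Benjamini-Hochberg adjustment over all probe sets. The contrasts were 14 days minus 0 days in control soil, and that change minus the same change in nZVI soil. Named genes are the 15 largest rises and 15 largest falls among called probe sets whose groups did not overlap, up to 6 called members with the smallest p per gene list, any member of lists of at most 15, and always col-19, gst-4, hsp-16.2, vit-2, sod-3, ftn-1, cdr-1, mtl-2 and mtl-1. The comparison and the 55 gene lists were chosen with earlier results of these data known. Gene span came from RefSeq (WBcel235); in the fit centred by span, which holds protein-coding genes alone and was added after seeing the data (as was the chemoreceptor level), the median deviation of genes of the same span decile and signal tercile was subtracted on each array. The number of arrays limits the precision. Samples with the same replicate number in the 2 control groups did not deviate together (correlations of -0.14, -0.02 and -0.18), so the numbers were not used as pairs. The fit was tested on simulated data.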

Additional observations from a re-analysis of the deposited data

Results flagged for a closer look

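For 18 of the genes named above, the change between 14 and 0 days differed between the soils by the test of the difference itself (limma, adjusted over all probe sets). The values are the change in control soil minus the change in nZVI soil, on the log2 scale with SE. A more positive change in control soil was found for cyts-1 (3.36 ± 0.60), F35E8.6 (3.35 ± 0.61), cpr-2 (3.22 ± 0.40), ftn-1 (2.79 ± 0.34), clec-121 (2.74 ± 0.46), F35E8.7 (2.64 ± 0.53), clec-163 (1.84 ± 0.26), acox-1.1 (1.64 ± 0.32), ctl-2 (1.02 ± 0.23) and pyk-2 (0.98 ± 0.19). A more negative one was found for irg-6 (-3.32 ± 0.31), bli-1 (-2.81 ± 0.51), col-19 (-2.25 ± 0.41), cdr-1 (-1.61 ± 0.24), cnc-9 (-1.56 ± 0.33), F22B5.4 (-1.44 ± 0.26), cnc-11 (-1.37 ± 0.29) and nlp-33 (-1.33 ± 0.25). The adjusted p ran from 1.35e-05 for irg-6 to 0.0448 for ctl-2. With 1 of the 12 arrays left out at a time, 12 of the 18 stayed called in every fit. The exceptions were pyk-2, lost without the first 0-day control array (adjusted p = 0.0504), acox-1.1 and F35E8.7, each lost in 4 fits (adjusted p up to 0.0611 and 0.0645), cnc-11 in 8 (up to 0.0779), cnc-9 in 9 (up to 0.0821) and ctl-2 in 11 (up to 0.11).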

How the results depend on the processing

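With 3 arrays per group, the number of calls depended on the arrays entered. The 3372 probe sets called in control soil (1646 higher, 1726 lower) became 8645 (4147 and 4498) with sample weights. With the arrays of the 2 control groups alone they became 5058 (2460 and 2598). The main fit pools the spread of all 6 groups, whose median standard deviation over probe sets reached 0.259, in control soil at 4 months. The 18832 protein-coding genes alone gave 1689 higher and 1329 lower, which became 1225 and 1083 after centring by gene span. A 2-fold minimum gave 1171 (464 and 707) with adjusted and 1409 (536 and 873) with unadjusted p. Leaving out 1 array gave 1226 to 3222 calls, with 564 to 1570 higher and 662 to 1652 lower, the array 3 of 0 days being the one whose removal moved the count least. The 299 probe sets that differed between soils (147 higher, 152 lower in control soil) became 1256 (696 and 560) with sample weights, 400 (218 and 182) with protein-coding genes alone, 475 (259 and 216) with those genes centred by span, and 1189 (682 and 507) with a 2-fold minimum and unadjusted p, and 155 to 368 (67 to 200 higher, 88 to 221 lower) without single arrays. The replicate block gave 3196 calls (1559 and 1637) in control soil and 207 (97 and 110) between soils; the samples share only a number. Of genes not called, signs turned for cdr-1, ftn-1, hsp-16.2 and gst-4 after span centring (0.13, 0.12, 0.19 and 0.011), and without single arrays for ftn-1 (-0.26 to 0.052, highest without 0-day array 2), hsp-16.2 (-0.30 to 0.042, without 0-day array 1) and vit-2 (-0.11 to 0.093, without 0-day array 3); the cause was not tested. Of 96 named genes called, 70 stayed called in all 6 fits without 1 control array, and of the 85 protein-coding ones 76 did after span centring. The intensity trend, robust prior, median centring and signal filter left all these totals within 1.5 times.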

Other observations

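Other gene groups of the same comparison, named by letter prefix and picked after their values were seen, are given as a description. They were picked from all prefixes with at least 6 measured genes, most of which are not described here. Over all genes, 6.01% rose and 5.08% fell. Of 6 chloride channel genes of the clh family, clh-1, clh-2, clh-3 and clh-4 rose, and of 6 dopamine receptor genes dop-2, dop-3, dop-5 and dop-6 did. Among 6 elt genes, elt-3 and elt-6 of the epidermis rose beside elt-2 and elt-7. Of 7 ndua genes, subunits of complex I encoded in the nucleus, 6 fell with a median change of -0.80 beside the 12 genes of the mitochondrial genome. The snr genes of the spliceosome fell in 4 of 7 members, the rpb subunits of RNA polymerase in 6 of 11, and the myosin light chain genes mlc-1, mlc-2, mlc-5 and mlc-7 in 4 of 7. The groups that rose have median spans of 6707 bases (clh), 5969 (dop) and 3043 (elt), and those that fell 1234 (ndua), 828 (snr), 766 (rpb) and 1274 (mlc). Their directions thus run the same way as the gradient of gene span given above. Its part in these groups was not tested beyond the fit centred by gene span. In that fit elt-2 and elt-7 stayed called higher, and the values of the other members are not given here.

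The synapse and muscle lists hold long genes as well, with median spans of 4759 and 5185 bases. Of 18 genes of the synapse and of neurotransmitters 1 rose and none fell (6 and none at an unadjusted p under 0.05, limma), with a median change of 0.30, and of 22 muscle genes 1 rose and 3 fell (11 and 3 at an unadjusted p under 0.05), with 17 positive changes and a median of 0.32. FMRFamide-like neuropeptide genes, short with a median span of 1186 bases, had a median of -0.05 in control soil and -0.63 in nZVI soil, where 14 of 31 fell, against 2 that rose and none that fell in control soil (6 and 1 at an unadjusted p under 0.05); no member was called for a difference between soils (14 were more positive in control soil at an unadjusted p under 0.05).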
